A study of Mus musculus with 6 samples.

Results

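The genes described here encode the 8 subunits of TRiC (also called CCT), the chaperonin of the cytosol: Tcp1, Cct2, Cct3, Cct4, Cct5, Cct6a, Cct7 and Cct8. They were taken as the rows whose gene symbol equals one of these names, 8 of the 52550 genes listed, with no use of their values. Polyadenylated RNA from mouse bone marrow cells labelled as primary hematopoietic stem cells was sequenced in 3 wild-type (WT) and 3 knockout (KO) libraries, to find genes that depend on Ppp2ca. Ppp2ca encodes the alpha isoform of the catalytic subunit of protein phosphatase 2A. WT libraries have the genotype Ppp2caf/f and KO libraries VAV1crePpp2caf/f, so both groups carry the floxed allele and only KO carries a Cre recombinase under Vav1, a driver known to act across blood lineages and not in stem cells alone. The sources used here do not give age, sex, the sorting gate, pooling of animals or the exons deleted. The labels also do not say that libraries of a group came from separate animals, so p-values measure the spread between these libraries, which may be technical.

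TRiC is a barrel of 2 stacked rings, each holding one copy of every subunit around a closed chamber. Unfolded proteins bind inside and fold there as ATP is split. Actin and tubulin are its best known clients, and WD-repeat proteins are another class. The subunits differ in how well they take up ATP. Tcp1, Cct2, Cct4 and Cct5 lie side by side and bind it tightly, whereas Cct3, Cct6a, Cct7 and Cct8 form the other side of the ring and bind it weakly.

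The DNA ahead of 4 subunit genes is shown because 7 of the 8 genes could be matched to a RefSeq promoter window (250 bases before to 50 after a start site, GRCm38) and these 4 had at least 100 bases before the start that lie in no annotated exon. Cct2, Cct7 and Cct8 passed the test below and Cct3 did not. Capitals mark letters that match one of the motifs searched on both strands, and no marked match overlaps another. Each line is written 5′ to 3′ on the strand of its gene. In GENCODE M21 the stretch ahead of Cct7 lies in an intron of Pradc1, a gene on the other strand, and the other stretches lie between genes.

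Cct2, chr10:117063853-117064102, minus strand: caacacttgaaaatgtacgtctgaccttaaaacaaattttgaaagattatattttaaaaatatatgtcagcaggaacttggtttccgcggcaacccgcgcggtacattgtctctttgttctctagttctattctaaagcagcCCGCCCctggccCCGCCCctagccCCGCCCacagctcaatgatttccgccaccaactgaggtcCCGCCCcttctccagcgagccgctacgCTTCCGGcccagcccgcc

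Cct3, chr3:88297000-88297115, plus strand: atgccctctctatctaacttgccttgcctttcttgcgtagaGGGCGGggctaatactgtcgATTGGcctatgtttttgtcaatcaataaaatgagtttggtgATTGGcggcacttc

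Cct7, chr6:85451284-85451504, plus strand: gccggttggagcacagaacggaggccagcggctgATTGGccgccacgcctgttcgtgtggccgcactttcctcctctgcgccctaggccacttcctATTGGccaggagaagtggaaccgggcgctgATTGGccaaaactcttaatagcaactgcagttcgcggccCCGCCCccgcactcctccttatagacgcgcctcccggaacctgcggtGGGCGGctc

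Cct8, chr16:87495874-87495998, minus strand: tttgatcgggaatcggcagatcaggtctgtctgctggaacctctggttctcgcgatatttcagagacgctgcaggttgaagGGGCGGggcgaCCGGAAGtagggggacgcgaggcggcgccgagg

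The GC box GGGCGG, read by Sp family factors, was found in 7 of the 7 windows of subunit genes, against 35.6% of all 32817 RefSeq windows of the same length. CCAAT, the letters of the NF-Y box, stood in 4 of the 7 (Tcp1, Cct3, Cct6a and Cct7), against 37.4% of all windows. The ETS motif CCGGAAG stood in 3 (Tcp1, Cct2 and Cct8), against 8.86%. These 3 motifs account for the capitals above: GGGCGG or its complement CCGCCC in each of the 4 stretches, CCAAT as ATTGG in Cct3 and Cct7, and CCGGAAG or CTTCCGG in Cct2 and Cct8. The paired heat shock motif TTCNNGAA was found in Cct5 (TTCCAGAA, bases -34 to -27 counted from the start) and in Cct6a (TTCGAGAA, bases 25 to 32), against 8.51% of all windows. The reverse arrangement GAANNTTC was in 0 of the 7 (7.86% of all windows), and so were the E-box CACGTG (7.15%), to which Myc binds, and the cAMP response element TGACGTCA (1.79%). The palindromic core of the NRF1 motif was found in Cct5 alone, against 0.966% of all windows. The shares are over all windows, which were not matched to the subunit genes for GC content or expression. A match describes letters in a window and does not show that a factor binds there.

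Of the 8 subunit genes, 6 rose in KO and 0 fell (limma on log2 normalised reads, Benjamini-Hochberg adjusted p below 0.05 over 20136 genes). Tcp1, Cct2, Cct5, Cct6a, Cct7 and Cct8 rose to between 125% and 157% of their WT means, and Cct3 and Cct4 did not pass. The median log2 fold change of the 8 genes was 0.44, against -0.02 for all tested genes. Of all tested genes, 10.3% rose and 13.0% fell. Among the 750 tested genes with a mean at least that of Cct2, the least abundant subunit gene, 41.5% rose, 7.2% fell and the median log2 fold change was 0.26. The 6 of 8 stands beside that higher share as well as beside 10.3%. In 6 of the 8 genes all 3 KO values lay above all 3 WT values, which held for 19.1% of all tested genes. Values are the authors' normalised reads, a library's reads per gene divided by 1 size factor per library.

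On the side of the ring that binds ATP tightly, 3 of 4 genes rose. Tcp1 (ENSMUSG00000068039.12, chromosome 17, 12915701 to 12925067, plus strand, GRCm38), which encodes CCT1 and was the first subunit described, was read at 19072, 22184 and 20631 in WT replicates 1 to 3 and at 29500, 30848 and 31950 in KO replicates 1 to 3. The lowest KO library lay well above the highest WT library. Its mean went from 20629 ± 1556 to 30766 ± 1227 (SD, n = 3 each), a log2 fold change of 0.58 ± 0.08 (SE; limma adjusted p = 0.00321).

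Cct2 (ENSMUSG00000034024.8, chromosome 10, 117051001 to 117063814, minus strand), encoding the beta subunit, stood at 8810, 10280 and 9548 in WT and 13301, 14125 and 14088 in KO. The groups did not overlap, although this was the least abundant subunit gene in every library. From 9546 ± 735 in WT it came to 13838 ± 465 in KO (SD, n = 3 each), with a log2 fold change of 0.54 ± 0.08 (SE; limma adjusted p = 0.00445).

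Cct5 (ENSMUSG00000022234.14, chromosome 15, 31590800 to 31601847, minus strand), encoding the epsilon subunit, had 30589, 34119 and 34637 normalised reads in WT and 42035, 42368 and 43151 in KO. KO libraries lay close together and above WT, with WT replicate 1 the lowest of all. Means were 33115 ± 2202 and 42518 ± 573 (SD, n = 3 each), and the log2 fold change was 0.36 ± 0.08 (SE; limma adjusted p = 0.0137).

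Cct4 (ENSMUSG00000007739.10, chromosome 11, 22990519 to 23003780, plus strand), encoding the delta subunit, was the member of this side that did not pass. Its values of 16057, 18129 and 18054 in WT overlapped those of 17330, 21407 and 20033 in KO. KO replicate 1 lay below WT replicates 2 and 3. Its log2 fold change was 0.17 ± 0.10 (SE; limma adjusted p = 0.286), with a 95% interval from -0.07 to 0.40.

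The side that binds ATP weakly likewise had 3 of 4 genes higher in KO. Cct6a (ENSMUSG00000029447.11, chromosome 5, 129786998 to 129846371, plus strand), encoding the zeta subunit of most tissues, was read at 18045, 22545 and 22010 in WT and at 30228, 35472 and 32821 in KO. The groups lay far apart, and the lowest library of each was replicate 1. Its log2 fold change of 0.66 ± 0.11 (SE; limma adjusted p = 0.00535) was the highest estimate among the 8, from means of 20867 ± 2459 and 32841 ± 2622 (SD, n = 3 each).

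Cct8 (ENSMUSG00000025613.13, chromosome 16, 87483326 to 87495873, minus strand), encoding the theta subunit, had 36962, 42624 and 41812 normalised reads in WT and 57936, 56562 and 57876 in KO. The 3 KO libraries were nearly level with each other and above every WT library. The mean of 40466 ± 3062 in WT became 57458 ± 776 in KO (SD, n = 3 each), a log2 fold change of 0.51 ± 0.08 (SE; limma adjusted p = 0.00458).

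Cct7 (ENSMUSG00000030007.8, chromosome 6, 85451514 to 85468475, plus strand), encoding the eta subunit, stood at 33238, 34643 and 34111 in WT and 41139, 43790 and 42681 in KO. Both groups were tight and apart. Means of 33997 ± 710 and 42537 ± 1331 (SD, n = 3 each) gave the lowest estimate among the 6 that passed, 0.32 ± 0.07 on the log2 scale (SE; limma adjusted p = 0.0139).

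Cct3 (ENSMUSG00000001416.13, chromosome 3, 88297116 to 88321767, plus strand), encoding the gamma subunit, was the other gene that did not pass. It was read at 21507, 25643 and 25023 in WT and at 24674, 30999 and 29147 in KO, so KO replicate 1 fell inside the WT range. The log2 fold change was 0.23 ± 0.11 (SE; limma adjusted p = 0.183), with a 95% interval from -0.03 to 0.49. A rise as large as that of Cct7 or Cct5 lies inside the intervals of both Cct3 and Cct4. The difference between these 2 genes and the other 6 was not tested.

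**Figure D1:**
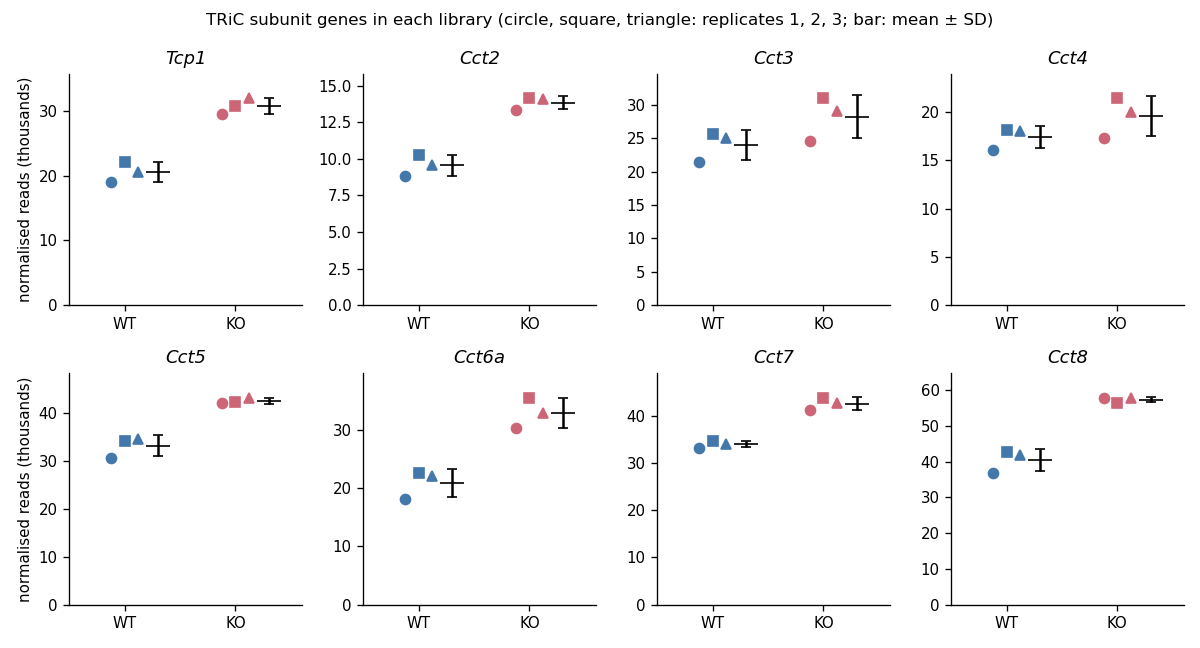
Normalised reads (in units of 1000, axes from 0) of the 8 TRiC subunit genes in the 3 WT and 3 KO libraries, with symbols for replicates 1 to 3 and a bar for the mean ± SD of each group. WT and KO values do not overlap in 6 panels, while in Cct3 and Cct4 the lowest KO library lies within the WT range.

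Calls for Tcp1, Cct2, Cct6a and Cct8 were made in each of the 19 other processing settings tried. Cct5 and Cct7 lost theirs in 4 of them. Without the intensity trend their adjusted p rose to 0.0900 and 0.0974, with fold changes unmoved. When each library was scaled to its total, the log2 fold changes were 0.22 and 0.18 (adjusted p = 0.0528 and 0.0744), and after quantile normalization 0.04 and 0.01 (adjusted p = 0.674 and 0.933). Leaving out KO replicate 3 gave adjusted p of 0.0669 for Cct5 and 0.0678 for Cct7. Cct3 and Cct4 passed in 0 of the 19, and quantile normalization turned their log2 fold changes to -0.03 and -0.06. Scaling to the library total moved the median of all tested genes from -0.02 to -0.16 and the share of higher genes among those called from 44.1% to 27.6%. Under it the median of the 8 subunit genes was 0.29, and under quantile normalization 0.17.

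**Figure D2:**
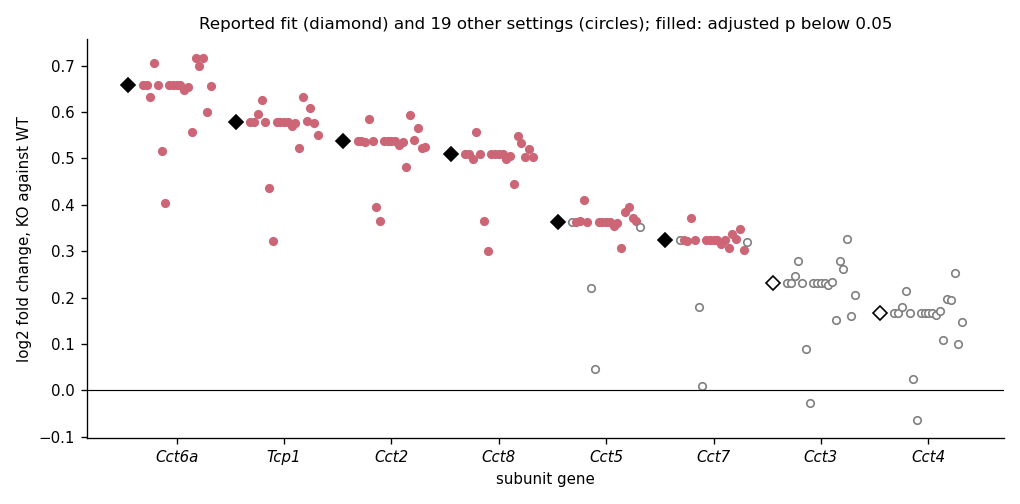
Log2 fold change (KO against WT) of each subunit gene in the reported fit (diamond) and in 19 other settings (circles), filled where the adjusted p was below 0.05. The 4 genes on the left stay filled throughout, Cct5 and Cct7 have 4 open circles each, and the lowest points of Cct3 and Cct4 fall below 0.

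Together the 8 genes took 0.441% ± 0.023 of all reads in WT and 0.535% ± 0.015 in KO (SD, n = 3 each). By library, the shares were 0.415%, 0.454% and 0.455% in WT replicates 1 to 3 and 0.519%, 0.550% and 0.537% in KO. These are shares of a library's own reads and use no size factor. Each KO library lay above each WT library. For WT replicate 3 and KO replicate 1, the nearest pair, 95% Wilson intervals ran from 0.453% to 0.457% and 0.517% to 0.521%. The intervals cover counting error only. WT replicate 1 was the lowest WT library in 8 of the 8 genes, and KO replicate 1 the lowest KO library in 7. WT replicate 1 also had the fewest reads of all libraries, 37951985, and KO replicate 1 the fewest of KO, 46033994. The part of depth in these values was not tested.

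Levels can be set beside each other between genes only per length. Per kilobase of a representative transcript (the APPRIS principal one in GENCODE M21, or for Cct6a, which has no protein-coding transcript there, a basic one), Cct5 and Cct8 were the most abundant in WT at 17871 ± 1189 and 16903 ± 1279 normalised reads per kilobase (SD, n = 3 each), with Cct5 above Cct8 in each WT library. Cct7 followed at 13928 ± 291 and Cct3 at 12169 ± 1128. Cct6a at 8503 ± 1002 and Tcp1 at 8434 ± 636 changed places between WT libraries, and Cct4 at 7010 ± 473 and Cct2 at 4873 ± 375 came last. The most abundant subunit exceeded the least abundant by between 3.28 and 3.84 times within a library, although the complex holds all 8 in equal number. In KO the per-kilobase levels were 24001 ± 324 for Cct8, 22946 ± 309 for Cct5 and 17426 ± 545 for Cct7. They were 14301 ± 1645 for Cct3, 13382 ± 1068 for Cct6a, 12578 ± 502 for Tcp1, 7887 ± 835 for Cct4 and 7064 ± 237 for Cct2. Cct8 lay above Cct5 in each KO library. Cct3 and Cct6a, then Cct6a and Tcp1, then Cct4 and Cct2, were neighbours whose means differed by less than their SDs added, although the order was the same in all 3 KO libraries. This order rests on the transcript chosen: over all annotated exon bases of a gene it became Cct8, Cct5, Cct6a, Cct7, Cct4, Tcp1, Cct3 and Cct2 in WT.

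As a share of the summed per-kilobase level of the 8 genes, Cct4 went from 7.82% ± 0.06 in WT to 6.58% ± 0.46 in KO (SD, n = 3 each), and Cct3 from 13.6% ± 0.33 to 11.9% ± 0.94. All 3 WT libraries exceeded all 3 KO libraries in both. Tcp1 went from 9.40% ± 0.25 to 10.5% ± 0.26 and Cct6a from 9.46% ± 0.48 to 11.2% ± 0.51, with KO above WT in every library. Cct8 moved from 18.8% ± 0.12 to 20.1% ± 0.99 and Cct2 from 5.43% ± 0.15 to 5.91% ± 0.04, again with no overlap. Cct5, at 19.9% ± 0.35 and 19.2% ± 0.62, overlapped between the groups, while Cct7 went from 15.6% ± 0.80 to 14.6% ± 0.17 without overlap. These shares sum to a whole in each library, so they do not move independently, and no test was made of them.

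**Figure D3:**
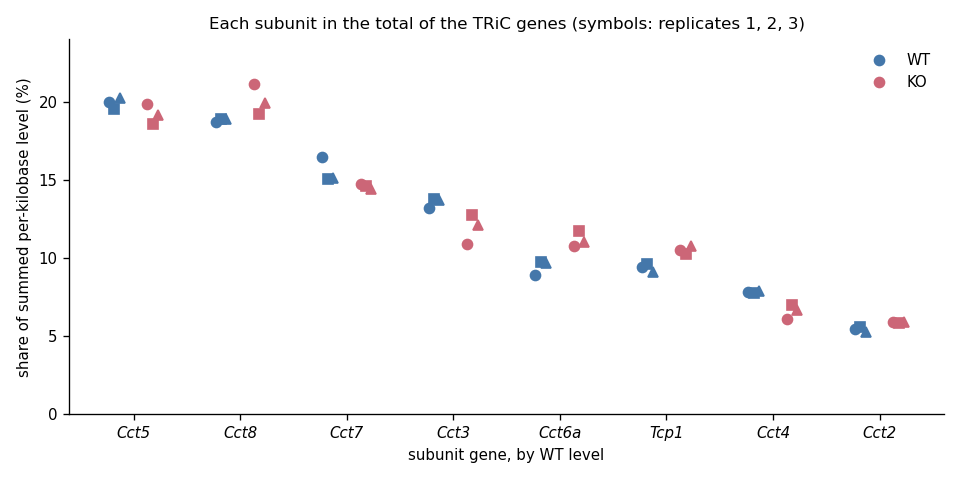
Share (%) of each subunit gene in the summed per-kilobase level of the 8 TRiC genes, for 3 WT and 3 KO libraries, ordered by WT level, with symbols for replicates 1 to 3. Cct3 and Cct4 lie lower in KO than in WT, Cct6a, Tcp1 and Cct2 higher, and Cct5 overlaps.

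Genes around TRiC were taken from lists of partners, 83 genes in all, of which 80 were tested: 25 rose and 4 fell, with a median log2 fold change of 0.23. Without KO replicate 3, 15 rose, and 2 fell without WT replicate 2, WT replicate 3 or KO replicate 2. The 25 of 80 lies between the 10.3% of all tested genes and the 41.5% of genes at least as abundant as Cct2 that rose, and so do the shares of called genes given below for tubulin genes, tubulin cofactors, client genes and the cytosolic Hsp70 and Hsp90 system. Prefoldin hands unfolded actin and tubulin to TRiC. Of its 6 subunit genes 0 rose and 0 fell. Their log2 fold changes were 0.08 for Pfdn1, 0.22 for Pfdn2, -0.04 for Vbp1, 0.33 for Pfdn4, -0.07 for Pfdn5 and 0.24 for Pfdn6, with a median of 0.15. The difference between prefoldin and TRiC genes was not tested. Phosducin-like and thioredoxin-like cofactors of TRiC also had 0 calls. Pdcl stood at -0.25 (limma adjusted p = 0.193), Pdcl3 at 0.37 (adjusted p = 0.0815) and Txndc9 at 0.07 (adjusted p = 0.752). Pdcl passed as lower when libraries were scaled to their totals (-0.39, adjusted p = 0.0458), and Pdcl3 as higher with library quality weights (0.45, adjusted p = 0.0182). Cct6b, a paralog of Cct6a best known from testis, had between 8 and 39 normalised reads per library and a log2 fold change of 0.53 ± 0.65 (SE), which did not pass. Cct8l1 and Pdcl2 were listed at 0 in all libraries.

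Among the clients, 4 of 15 tested tubulin genes rose and 1 fell. Tuba4a rose by 0.76 ± 0.15 and Tuba1c by 0.56 ± 0.11 on the log2 scale (SE; limma adjusted p = 0.00955 and 0.0121). Tubb4b at 0.56 and Tubg1 at 0.40, named after their values were seen, rose too. Tubb4a fell by 2.07, from between 52 and 95 reads in WT to between 9 and 24 in KO. The most abundant tubulin genes, Tuba1b and Tubb5, stood at 0.15 (adjusted p = 0.498) and 0.08 (adjusted p = 0.649). Of 7 tubulin folding cofactors, which take tubulin over from TRiC, Tbcb (0.59, adjusted p = 0.00789) and Tbcd (0.39, adjusted p = 0.0278) rose and 0 fell. Each of the 6 libraries was left out in turn. Tuba1c missed the threshold without KO replicate 3 (adjusted p = 0.0510), Tbcd in 4 of the 6 fits (up to 0.103) and Tubb4a, Tubb4b and Tubg1 in 5 each (up to 0.0876, 0.112 and 0.149), whereas Tuba4a and Tbcb passed in all 6. Tuba4a, Tuba1c, Tubb4b, Tubg1 and Tbcd also missed it without the intensity trend (adjusted p = 0.0554, 0.0695, 0.121, 0.135 and 0.108). Quantile normalization lowered Tuba1c to 0.30 (adjusted p = 0.0613) and Tubb4b to 0.28 (0.230), and Tubb4a, Tubg1 and Tbcd missed the threshold there too. Of these genes Tbcb alone passed in each of the 19 other settings.

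Where 10.3% of all tested genes rose, and 41.5% of those at least as abundant as Cct2, actin genes gave 3 rises of 5. These were Actr3 (0.44, adjusted p = 0.0111) and Actr2 (0.54, adjusted p = 0.0403), both of the Arp2/3 complex, and Acta2, smooth muscle actin, at 6 to 11 reads in WT and 26 to 86 in KO. Actb, the main cytoplasmic actin gene, stood at 0.08 (adjusted p = 0.728). Of 17 WD-repeat and other client genes, 6 rose and 0 fell, with a median of 0.28. Strap, a receptor-associated WD-repeat protein, rose by 0.47 ± 0.07 (SE; adjusted p = 0.00362), Rack1, a scaffold on the ribosome, by 0.54 ± 0.09 (adjusted p = 0.00647) and Wrap53, which carries telomerase RNA, by 0.62 ± 0.12 (adjusted p = 0.00954). Cdc20, the activator of the anaphase-promoting complex, rose by 0.39 ± 0.08 (adjusted p = 0.0125). Ppp2r2a, a WD-repeat regulatory subunit of the phosphatase that Ppp2ca serves, stood at -0.08 (adjusted p = 0.695), and Mlst8 of the mTOR complexes at -0.08 (adjusted p = 0.660). With single libraries left out, Actr2 and Acta2 passed in 2 of 6 fits (adjusted p up to 0.138 and 0.0787), and Cdc20 missed without KO replicate 3 (adjusted p = 0.0590), while Actr3, Strap, Rack1 and Wrap53 passed in all 6. Quantile normalization ended the calls of Actr3 (0.13, adjusted p = 0.228), Rack1 (0.24, 0.0613), Cdc20 (0.19, 0.136) and Actr2 (0.31, 0.226). Without the intensity trend these 4 missed the threshold as well (adjusted p from 0.0512 for Rack1 to 0.132 for Actr2), and scaling to the library total also ended the calls of Cdc20 (0.25, 0.0644) and Actr2 (0.39, 0.116). Strap and Wrap53 passed in each of the 19 other settings.

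Other chaperone systems were read beside TRiC. Of 16 genes of the cytosolic Hsp70 and Hsp90 system, 6 rose and 1 fell, with a median of 0.33. Hspa4, a nucleotide exchange factor, rose by 0.76 ± 0.09 (SE), Ptges3, the Hsp90 cochaperone p23, by 0.70 ± 0.08 and Dnaja2, an Hsp70 cochaperone, by 0.55 ± 0.08 (limma adjusted p = 0.00145, 0.00145 and 0.00419). Dnajb1, a heat-inducible cochaperone, fell by 0.70 and is named because it was the one that fell, a choice made with its value in view. Hspa8, the constitutive Hsp70, was read at 85764, 110331 and 98225 in WT and 91829, 191028 and 115341 in KO. KO replicate 2 stood far above the others, and the gene did not pass (0.37, adjusted p = 0.326). The chaperonin of mitochondria is Hspd1 with its lid Hspe1, and both rose, by 0.71 ± 0.10 and 0.53 ± 0.10 (SE; adjusted p = 0.00329 and 0.00782). Hspa9, the mitochondrial Hsp70, and Grpel1, its exchange factor, rose by 0.65 and 0.59. With these, 4 of the 5 genes in that list passed, with a median of 0.59. Beside this count, 10.3% of all tested genes rose, and 41.5% of those at least as abundant as Cct2. Without the intensity trend Hspe1 (adjusted p = 0.0534) and Dnajb1 (0.0629) missed the threshold, and the other called genes named here passed in each of the 19 other settings.

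**Figure D4:**
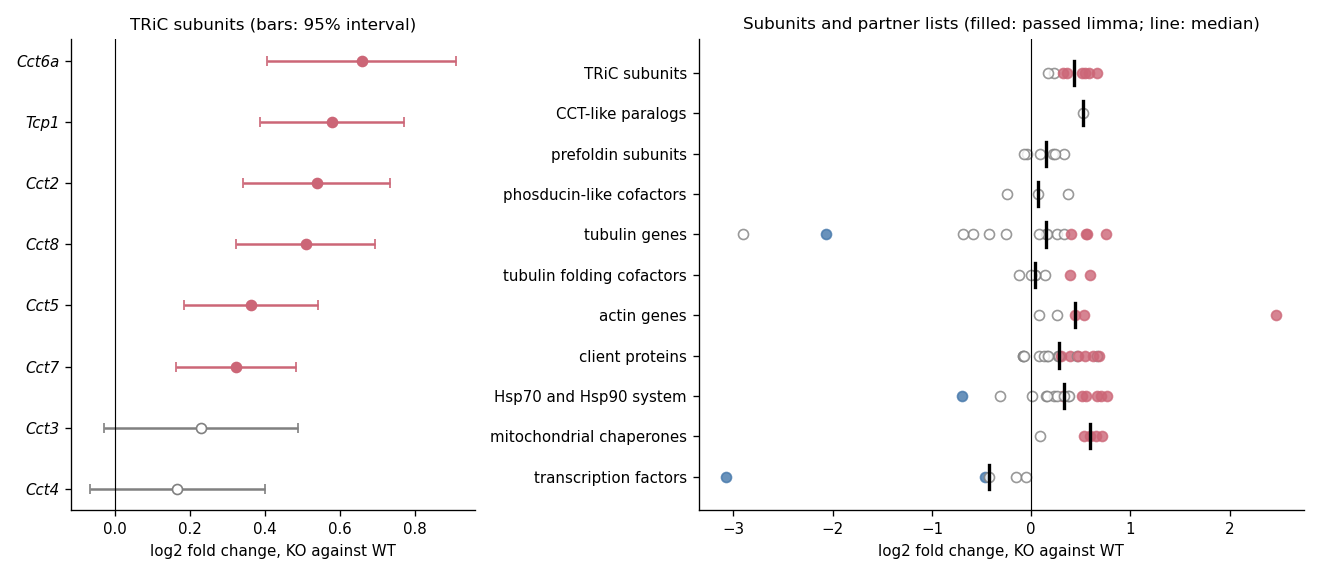
Left, log2 fold change (KO against WT) of each TRiC subunit gene with its 95% interval. Right, log2 fold changes of the subunit genes and of the tested genes in each partner list, filled where limma passed, with a black line at each list's median, which is 0.44 for the subunits, 0.15 for prefoldin and 0.59 for the mitochondrial chaperones.

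Of 5 genes for transcription factors that have been reported at chaperonin promoters, 0 rose and 2 fell. Among all tested genes 10.3% rose and 13.0% fell. Hsf1, the main heat shock factor, stood at -0.15 (limma adjusted p = 0.396) and Hsf2 at -0.06 (adjusted p = 0.869). Myc fell by 0.47, from 11198, 13330 and 14591 in WT to 10039, 9130 and 8985 in KO (adjusted p = 0.0208). Mycn fell by 3.07, from 2670, 2154 and 3038 to 259, 421 and 265 (adjusted p = 0.000428). Myc passed in 2 of the 6 fits that left out a library (adjusted p up to 0.0862 in the rest) and missed without the intensity trend (0.0946), and Mycn passed in each of the 19 other settings. RNA levels say nothing of a factor's activity, which was not measured.

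Most subunit genes start close to a gene on the other strand. Such a neighbour within 1000 bases was annotated for 6 of the 8, all but Cct2 and Cct4. Distances are between gene starts in GENCODE M21. For Cct5 and Fam173b the deposited starts lie closer together, at 31601847 and 31601852. From the RefSeq start used for the promoter window, Mrpl18 starts 16 bases from Tcp1, Psph 93 from Cct6a and Fam173b 6 from Cct5. Psph, a serine synthesis enzyme that starts 451 bases from Cct6a, rose from 1676, 1834 and 2051 to 3724, 2811 and 3651 (log2 fold change 0.87 ± 0.14, SE; limma adjusted p = 0.00491). Mrpl18, of the mitochondrial ribosome, starts 644 bases from Tcp1 and rose from 6917, 7939 and 8367 to 10979, 10048 and 11278 (0.48 ± 0.10, adjusted p = 0.0118). Both overlap the subunit's gene model, and no source used here says if strand was kept, so reads in the overlap cannot be assigned. Pradc1 beside Cct7 overlaps likewise and stood at 0.09 (adjusted p = 0.815). The remaining neighbours share no base with the subunit gene. Tsacc, which starts 117 bases from Cct3, fell from 181, 232 and 231 to 123, 100 and 123 (-0.89 ± 0.24, adjusted p = 0.0352). Fam173b, 48 bases from Cct5, stood at 0.27 (adjusted p = 0.278) and B130034C11Rik, 126 bases from Cct8, at -0.19 (adjusted p = 0.679). Of the 6 neighbours, 2 passed as higher and 1 as lower, where 10.3% of all tested genes rose and 13.0% fell. Mrpl18 missed the threshold without KO replicate 3 (adjusted p = 0.0589) and without the intensity trend (0.0690). Tsacc passed in 1 of the 6 fits that left out a library (up to 0.104 in the rest) and missed after quantile normalization (-0.50, 0.193) and with the replicate block (0.0837). Psph passed in each of the 19 other settings.

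**Figure D5:**
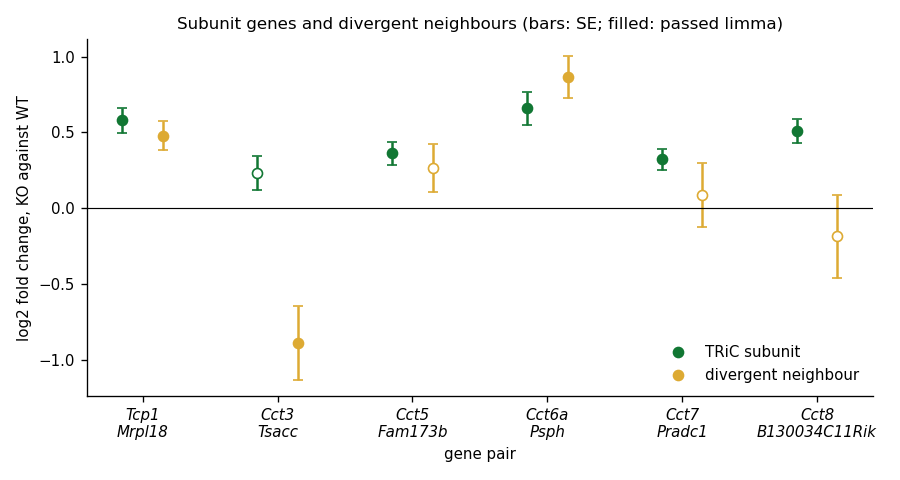
Log2 fold change (KO against WT) of each subunit gene and of the gene starting within 1000 bases on the other strand, with SE bars, filled where limma passed. Psph and Mrpl18 lie above 0 with Cct6a and Tcp1, and Tsacc lies below 0 beside Cct3.

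Outside the subunits and partner lists, and leaving out clone, Rik, Gm and pseudogene names, 7106 genes had a mean of 1000 or more. Pearson's r picked the 6 among them whose pattern over the 6 libraries was most like the mean log2 subunit level. They were Ltv1 (r = 0.998), which exports the small ribosomal subunit, Bop1 (0.998), of large subunit assembly, Srm (0.997), spermidine synthase, Ndufaf6 (0.997), for complex I assembly, Isg20l2 (0.997), an exonuclease, and Sec13 (0.997), of the COPII coat. Bop1 went from 5879, 7445 and 7507 in WT to 10791, 12950 and 12157 in KO, with replicate 1 lowest in each group as for most subunit genes. The libraries form a WT and a KO cluster, so r mixes the difference between groups with the spread inside them. It is given as a description.

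The targeted gene was read first as a check of the labels. Ppp2ca stood at 32909, 33451 and 33169 normalised reads in WT and 23728, 22419 and 24046 in KO, so KO held 70.5% of the WT mean (log2 fold change -0.50, limma adjusted p = 0.00268). Libraries held between 37951985 and 58692037 reads. Of 10 stem cell markers 9 fell and 0 rose, with summed levels of 87285 to 98875 in WT and 30971 to 48978 in KO. All 8 granulocyte-monocyte progenitor markers rose (sums of 1260227 to 1491393 in WT and 1877402 to 2092593 in KO), and 4 of 8 proliferation genes rose with 0 lower (sums of 130720 to 138629 in WT and 146448 to 156776 in KO). Beside these counts, 10.3% of all tested genes rose and 13.0% fell. Among tested genes with a mean at least that of Cct2, 41.5% rose, which is near the share of the proliferation genes. Erythroid markers fell in 8 of 8 (49903 to 56648 in WT and 10892 to 12209 in KO), megakaryocyte markers in 7 of 7 (29834 to 31629 in WT and 5329 to 7739 in KO) and macrophage markers in 4 of 8 (64185 to 76709 in WT and 26719 to 37075 in KO). Of 5 tested B lineage markers 1 fell, Igkc (sums of 13357 to 32165 in WT and 2377 to 3717 in KO), and Ebf1 and Pax5 were at 0 in all libraries. Of 7 tested T and NK markers 4 fell and 1 rose, Nkg7 (sums of 34411 to 35718 in WT and 41739 to 44006 in KO). Igkc, Nkg7 and Lyz2 are named after their values were seen. Nkg7 missed the threshold in 4 of the 19 other settings: without KO replicate 3 (adjusted p = 0.0646), without the intensity trend (0.0975), with scaling to the library total (0.18, 0.0831) and after quantile normalization (0.010, 0.930). Nkg7 alone, at 33344 to 34751 in WT and 41638 to 43814 in KO, makes up nearly all of its list's sum. Lyz2, at 49252 to 55247 in WT and 17183 to 24102 in KO, makes up most of the macrophage sum. Igkc makes up most of the B lineage sum in WT. A sum weighs the most abundant genes of its list most. In bulk libraries, a change in the number of cells of a type and a change in RNA per cell cannot be told apart. The part of these marker shifts in the subunit genes was not tested.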

How the data were processed

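Per the labels' protocols, Trizol was used for extraction and a VAHTS mRNA-seq v2 kit for the poly(A) libraries. The submitters' processing notes name HISAT2 and StringTie, and mm8 beside mm10, with no roles. The sources used here do not give the counting rule or the strand. Each deposited value is a signal for a gene in a library, and 100% of values are whole multiples of 1 step per library to within 0.01 of a read, so they are read counts divided by a size factor. Division by the step gave back whole reads. Start and end matched for all 49035 gene IDs that GENCODE M21 holds in the same version, and coordinates are therefore GRCm38.

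The test was limma 3.58.1 in R 4.3.3, two-sided, with eBayes and its intensity trend, fitted to log2 of the value plus a pseudocount of 1. Genes entered if at least 3 of the 6 libraries reached 1, and p was adjusted over all 20136 at a threshold of 0.05. Fold changes on this scale are too small for low genes. The 19 alternatives were other variance models, scalings, pseudocounts and filters, a replicate block, edgeR 4.0.16 and DESeq2 1.42.0 on the recovered reads, and leaving out each library. On simulated data with fewer changed genes than here, the fit recovered 11.1% of 1.5-fold changes and 75.4% of 2-fold changes. A gene that did not pass is therefore not shown to be unchanged. No libraries agreed within sampling noise (chi-square per degree of freedom from 38.0 to 209.4). Over all tested genes, same-numbered WT and KO libraries did not deviate together (r from -0.023 to -0.011). That does not exclude a pairing in some genes, and replicate 1 was lowest in both groups for most subunit genes.

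The members and lists were chosen with earlier results of these data known. Named are all 8 subunits, up to 3 called genes with the smallest p of each partner list, a fixed set of 18 others, the prefoldin subunits, neighbours within 1000 bases, 6 genes of like pattern and Ppp2ca. Promoter windows are from RefSeq (GRCm38). Where RefSeq gave a gene more than 1 start, the one nearest the deposited gene start was used.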

Additional observations from a re-analysis of the deposited data

How the results depend on the processing

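Tcp1, Cct2, Cct6a and Cct8 kept their direction and call in each of the 19 alternatives, and the count of subunit genes lower in KO was 0 in each. Subunit genes higher numbered 4 or 6 throughout. Without the intensity trend, Cct5 (0.36) and Cct7 (0.32) no longer passed, partner genes numbered 11 higher and 2 lower, and 1071 of all genes were higher. Library quality weights gave 7 partner genes lower and 3198 of all genes higher, and turned Pfdn5 to 0.023. Upper quartile scaling turned Vbp1 to 0.0050. Scaling to the library total gave a subunit median of 0.29, Cct5 0.22 and Cct7 0.18 (neither passing), 8 partner genes lower, 1337 of all genes higher and 3510 lower, and turned Actb (-0.060), Pfdn1 (-0.058), Pradc1 (-0.056), Tubb5 (-0.061) and Txndc9 (-0.075). Quantile normalization gave a subunit median of 0.17, Cct5 0.045, Cct7 0.0099 (neither passing) and 14 partner genes higher, and turned Cct3 (-0.027), Cct4 (-0.064), B130034C11Rik (0.23), Hsf2 (0.16), Tuba1b (-0.17) and Tubb5 (-0.15). The cause of these shifts was not tested.

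Leaving out each library in turn, partner genes higher ranged from 15 to 21 and lower from 2 to 5, all genes higher from 978 (without KO replicate 3) to 1808 and lower from 1617 to 2548. Cct5 ranged from 0.31 to 0.40 and Cct7 from 0.30 to 0.35. Named genes that changed sign in such a fit did not pass in any fit: Hsf2 (-0.23 to 0.10), Pradc1 (-0.10 to 0.32), Tubb5 (-0.026 to 0.15), Txndc9 (-0.0026 to 0.19), Actb (-0.012 to 0.25), Pfdn1 (-0.022 to 0.23), Ppp2r2a (-0.19 to 0.011) and Pfdn5 (-0.13 to 0.012).

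The replicate block gave 6 subunit genes higher and 0 lower, 22 partner genes higher and 4 lower, and 1705 and 2157 of all genes. No source used here says that the numbers pair the libraries, so this is a fit by number alone. On the recovered reads, edgeR called 6 subunit genes and 2075 of all genes higher and DESeq2 6 and 2424. Each subunit gene had at least 8810 normalised reads per library, so counting error is small beside the spread between libraries.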

Other observations

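The annotated pseudogenes named for a subunit, Tcp1-ps1 and Cct3-ps1, were listed at 0 in all libraries. Tcp1 and Cct6a each host a pair of small nucleolar RNA genes. Snora20 in Tcp1 had between 1.90 and 9.36 normalised reads per library, and Gm23245 in Cct6a between 46.8 and 64.3 in WT and between 33.2 and 40.6 in KO, below the WT range although its host was higher in KO. Polyadenylated libraries are not made to capture such RNAs. Acat3, on the strand opposite Tcp1, overlaps it by 1255 bases and was read at 1950, 2279 and 2850 in WT and 2947, 4134 and 4144 in KO. Usp16, on the strand opposite Cct8, overlaps it by 192 bases. Its values were 2295, 2266 and 1959 in WT and 2875, 3006 and 2598 in KO. In Acat3 and Usp16 all 3 KO values lay above all 3 WT values, as in 19.1% of all tested genes. Reads in these overlaps cannot be assigned either.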
